A study of Mus musculus with 8 samples.

Results

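The genes described here encode 10 surface molecules with which a dendritic cell encourages or restrains a T cell: Cd80, Cd86, Icosl, Cd274, Pdcd1lg2, Cd40, Tnfsf9, Tnfrsf4, Cd83 and Cd200. They were chosen by name, with earlier results of these data known, and all 10 were found among the 24369 genes of the deposited count table. Most are ligands, whereas Cd40 and Tnfrsf4 encode receptors. The study names sitagliptin, which blocks the peptidase DPP4, in its title and sorted conventional dendritic cells from tumours of MC38-EGFP, a mouse colon carcinoma line marked with enhanced green fluorescent protein (EGFP). The 4 groups, all of genotype WT and with no drug named in the labels, were EGFP+ cDC1, EGFP- cDC1, EGFP+ cDC2 and EGFP- cDC2, each with 2 libraries of bulk RNA. The labels do not say whether replicates came from separate animals, so p-values measure only the spread between these libraries, which may be technical.

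A T cell that recognises its antigen on a dendritic cell reads further signals from the same contact. CD80 and CD86 engage CD28 to license activation and CTLA-4 to restrain it, and PD-L1 and PD-L2 engage the inhibitory receptor PD-1. Members of the tumour necrosis factor ligand and receptor superfamilies, such as the ligand of CD137 and the receptor CD40, carry signals into the T cell, the dendritic cell or both. The cDC1 subset is known for cross-presentation to CD8 T cells and the cDC2 subset for priming CD4 T cells, and dendritic cells that take up tumour material can raise both stimulatory and inhibitory ligands as they mature.

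Library totals were 17869441 to 22195681 counts, of which the ribosomal repeat gene Rn45s took 19.4% to 35.6%. Levels are in CPM, read counts scaled to library size, after TMM, a correction for library composition. A count of 0 allowed up to 3 counts, or 0.131 to 0.211 CPM depending on the library, which covers counting error only. The 10 markers of cDC1 summed to 3389 to 5705 CPM in the cDC1 libraries and 183 to 541 CPM in the cDC2 libraries. The 10 markers of cDC2 summed to 33.0 to 556 CPM in the cDC1 libraries and 959 to 1098 CPM in the cDC2 libraries, in the direction of the labels. In the cDC2 libraries the shared dendritic cell genes Flt3 (0 to 10.8 CPM) and Zbtb46 (0 to 1.04 CPM) were low, against 67.2 to 208 CPM of Flt3 and 10.1 to 37.1 CPM of Zbtb46 in cDC1. All 12 macrophage and monocyte markers were detected in every cDC2 library at a summed 18412 to 39073 CPM, against 389.7 to 11480.0 CPM and 11 detected markers in each cDC1 library. Complement gene C1qa was at 979 to 2478 CPM in cDC2 libraries and 0.481 to 4.21 CPM in cDC1 libraries. Across the 8 libraries the markers of T cells summed to 0 to 3.51 CPM, of B cells to 0 to 22.2 CPM, of NK cells to 0 to 0.916 CPM, of neutrophils to 0.0438 to 35.6 CPM of tumour epithelium to 0 to 49.3 CPM and of plasmacytoid dendritic cells to 82.4 to 288 CPM. Replicate 2 of EGFP+ cDC1 stood apart within its subset, with 5498 CPM of Ccr7, the chemokine receptor of migrating mature dendritic cells, and 4651 CPM of Il12b, against 70.8 to 368 CPM of Ccr7 and 16.8 to 98.6 CPM of Il12b in the other cDC1 libraries. The 9 markers of fibroblasts and endothelium summed to 811 CPM in replicate 1 of EGFP+ cDC1 and 183 CPM in replicate 2 of EGFP+ cDC2, against 10.7 to 24.7 CPM in the other 6 libraries. Of these the matrix gene Sparc made up 674 CPM and 126 CPM. The log-scale correlation between replicates was 0.629 in EGFP+ cDC1 and 0.850 to 0.898 in the other groups.

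Cd83 set the subsets apart. It encodes a surface glycoprotein of mature dendritic cells that keeps MHC class II and CD86 at the surface. Cd83 was at 785 and 1207 CPM in EGFP+ cDC1 and at 1707 and 1206.5 CPM in EGFP- cDC1, against 143 and 164 CPM in EGFP+ cDC2 and 263 and 308 CPM in EGFP- cDC2. The lowest cDC1 library was thus above the highest cDC2 library. Over both EGFP fractions Cd83 averaged 1226 ± 377 CPM in cDC1 and 219.6 ± 78.9 CPM in cDC2 (SD, n = 4 each), and it was 5.75-fold higher in cDC1 (log2 fold change 2.52 ± 0.27 SE, adjusted p = 0.00251, edgeR quasi-likelihood test with Benjamini-Hochberg adjustment over 11394 genes). It was the 1 member of the 9 tested that passed an adjusted p of 0.05 over both fractions, in which 1.32% of all genes tested passed. At an unadjusted p under 0.05 there were 2 (Cd83 and Pdcd1lg2), against 13.5% of all genes, and DESeq2 called 1 (Cd83), against 10.2%. The call held under every alternative tried and without each library in turn, with log2 fold changes of 2.35 to 2.65 and adjusted p of 2.93e-16 to 0.014. The macrophage and monocyte markers moved with the subset, as given above, and their part in the difference was not tested. A lower level in such bulk libraries can come from fewer cells of a type or from less RNA per cell, which cannot be told apart.

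The Cd83 difference was next taken within each EGFP fraction. In EGFP+ cells it was 6.49-fold higher in cDC1 than in cDC2 (log2 fold change 2.7 ± 0.35, adjusted p = 0.0401), the 1 member called of 9, against 0.228% of all genes. There 4 members had an unadjusted p under 0.05 (Cd83, Pdcd1lg2, Cd80 and Cd86), against 15.9% of all genes, and DESeq2 called 3 (Cd83, Pdcd1lg2 and Cd80), against 13.9%. In EGFP- cells it was 5.10-fold higher (log2 fold change 2.35 ± 0.34, adjusted p = 0.0502), so that edgeR called 0 members there, against 0.36% of all genes. At an unadjusted p under 0.05 that fraction had 1 member of 9, against 9.58% of all genes, and DESeq2 called 1 member, also Cd83 (adjusted p = 8.95e-08), against 7.35% of all genes. The test of the difference between the EGFP effects in cDC1 and in cDC2 gave Cd83 an adjusted p of 0.906 and a 95% interval of -0.73 to 1.43 on the log2 scale. The call in EGFP+ cells was lost in the fit with a replicate block (adjusted p = 0.108), with the compared libraries alone (0.264), with no robust estimation (0.0592) and without any 1 of 6 libraries. The adjusted p there was 0.0777 without replicate 1 and 0.0795 without replicate 2 of EGFP- cDC1, 0.0835 and 0.185 without those of EGFP+ cDC2, and 0.11 and 0.115 without those of EGFP- cDC2. In EGFP- cells it was under the threshold without replicate 1 (0.00446) or replicate 2 (0.0065) of EGFP+ cDC1 and without replicate 1 of EGFP+ cDC2 (0.0381), and reached 0.465 without replicate 1 of EGFP- cDC2.

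With EGFP, Cd83 pointed down in both subsets without a call. The EGFP+ cDC2 libraries were both below the EGFP- cDC2 libraries (log2 fold change -0.90 ± 0.33, unadjusted p = 0.0283, adjusted p = 1), whereas in cDC1 the fractions met at 1207 and 1206.5 CPM (log2 fold change -0.55 ± 0.33, adjusted p = 0.465). Over both subsets the log2 fold change was -0.72 ± 0.26 (unadjusted p = 0.0192, adjusted p = 0.951).

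**Figure D1:**
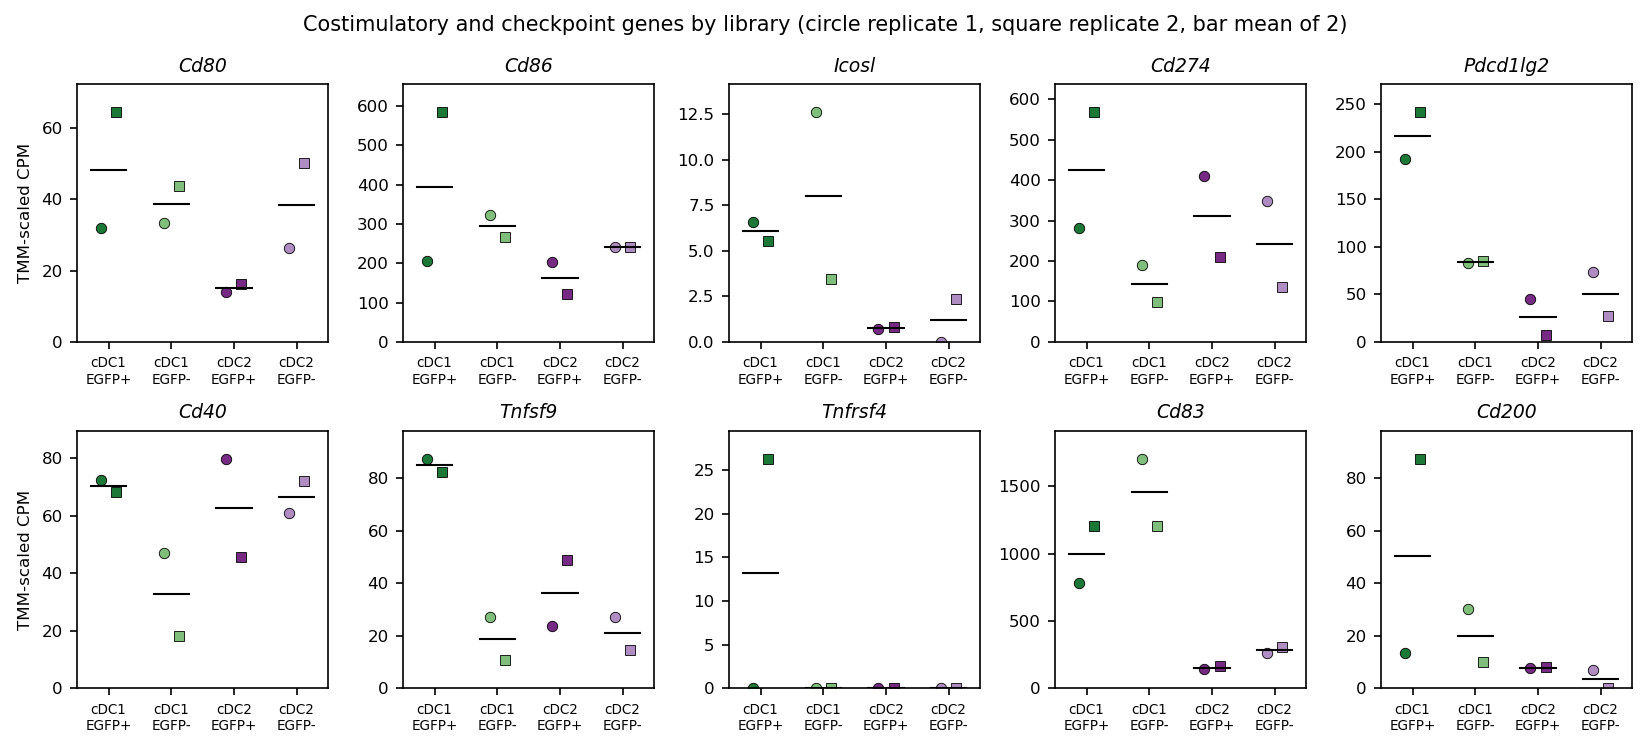
Levels of the 10 genes in TMM-scaled CPM (vertical axes, each from 0) in the 8 libraries, by group from EGFP+ cDC1 to EGFP- cDC2, with replicate 1 as a circle, replicate 2 as a square and the mean of 2 as a bar. Cd83 lies between 785 and 1707 CPM in cDC1 and between 143 and 308 CPM in cDC2, and Tnfrsf4 has a level above 1 CPM in replicate 2 of EGFP+ cDC1 alone.

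The ligands of CD28 and CTLA-4 were present in all 8 libraries. Cd86 was at 206 and 585 CPM in EGFP+ cDC1 and 324 and 267 CPM in EGFP- cDC1, against 203 and 122 CPM in EGFP+ cDC2 and 242 and 240.2 CPM in EGFP- cDC2. The EGFP+ cDC1 replicates bracketed every other library of cDC1, and both cDC1 groups were above their cDC2 counterparts, by a margin of 206 against 203 CPM among EGFP+ cells. Cd86 was 2.43-fold higher in EGFP+ cDC1 than in EGFP+ cDC2 (log2 fold change 1.28 ± 0.51, adjusted p = 0.288). Leaving out each library in turn gave log2 fold changes of 0.34 to 1.85. The highest came without replicate 1 of EGFP+ cDC1, which left replicate 2 as the only library of that group. Over both fractions the log2 fold change was 0.79 ± 0.39 (adjusted p = 0.412).

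Cd80, the less abundant of the pair, was at 31.9 and 64.5 CPM in EGFP+ cDC1 and 33.3 and 43.9 CPM in EGFP- cDC1, against 14.1 and 16.3 CPM in EGFP+ cDC2 and 26.4 and 50.3 CPM in EGFP- cDC2. The EGFP+ cDC2 libraries held the lowest levels of all, below both EGFP- cDC2 libraries and both EGFP+ cDC1 libraries. Against EGFP- cDC2 the log2 fold change was -1.34 ± 0.59 (unadjusted p = 0.0571, adjusted p = 1). EGFP+ cDC1 was 3.17-fold above EGFP+ cDC2 in edgeR (log2 fold change 1.66 ± 0.60, adjusted p = 0.251), and DESeq2 gave 1.74 with an adjusted p of 0.039. In cDC1 the EGFP difference of both genes was small beside its error, at log2 0.32 ± 0.58 for Cd80 and 0.42 ± 0.50 for Cd86. Without replicate 2 of EGFP+ cDC1 these differences were -0.27 for Cd80 and -0.52 for Cd86.

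Icosl, which encodes the ligand of the T cell costimulator ICOS, was scarce. Its levels were 6.61 and 5.54 CPM in EGFP+ cDC1 and 12.6 and 3.45 CPM in EGFP- cDC1, against 0.677 and 0.792 CPM in EGFP+ cDC2 and 0 and 2.36 CPM in EGFP- cDC2. Every cDC1 library was above every cDC2 library, on 74 to 270.0 counts in cDC1 and 0 to 53 counts in cDC2. The log2 fold change over both fractions was 2.90 ± 1.77 (adjusted p = 0.553), with an interval of -1.06 to 6.85.

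The genes of the PD-1 ligands are neighbours on the plus strand of mouse chromosome 19, Cd274 (PD-L1) at chr19:29367455-29388095 and Pdcd1lg2 (PD-L2) at chr19:29410919-29471161 (GRCm38, GENCODE M21), with 22.8 kb between them. An antisense gene overlaps exons of Cd274, and the use of strand in counting is not given in the sources used here. RefSeq's promoters for GRCm38.p6 cover 250 bases before to 50 after the start of 6 of the 10 genes. The windows of the 2 PD-1 ligand genes are shown because the genes lie side by side and their levels are set side by side below. They cover chr19:29367188-29367487 for Cd274 and chr19:29410669-29410968 for Pdcd1lg2, both on the plus strand. Capitals mark matches on either strand to the core of interferon regulatory factor sites, AANNGAAA, and to the NF-kB consensus, which do not overlap here.
Cd274: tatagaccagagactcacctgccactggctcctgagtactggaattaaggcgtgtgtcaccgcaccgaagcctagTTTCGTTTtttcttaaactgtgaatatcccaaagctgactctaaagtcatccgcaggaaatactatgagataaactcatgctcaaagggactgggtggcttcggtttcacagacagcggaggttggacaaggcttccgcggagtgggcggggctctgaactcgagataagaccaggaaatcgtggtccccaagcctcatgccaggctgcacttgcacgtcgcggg
Pdcd1lg2: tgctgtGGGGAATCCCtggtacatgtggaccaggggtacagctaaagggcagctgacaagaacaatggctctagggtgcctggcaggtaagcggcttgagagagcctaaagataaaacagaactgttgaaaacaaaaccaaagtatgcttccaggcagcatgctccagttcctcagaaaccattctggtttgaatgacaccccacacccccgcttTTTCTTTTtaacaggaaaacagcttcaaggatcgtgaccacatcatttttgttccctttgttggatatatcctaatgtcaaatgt
The interferon core lies 175 bases upstream of the start in Cd274 and 35 bases upstream in Pdcd1lg2, on the minus strand in both, and 23.9% of the 32851 promoter windows in the table hold it. Pdcd1lg2 also holds the NF-kB consensus 244 bases upstream, found in 4.51% of windows. These are matches of letters only.

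Cd274 was at 281 and 569 CPM in EGFP+ cDC1, against 189.6 and 98.7 CPM in EGFP- cDC1, and at 411 and 211 CPM in EGFP+ cDC2, against 348 and 136 CPM in EGFP- cDC2. The fractions did not overlap in cDC1 and overlapped in cDC2. The EGFP+ cDC1 level was 2.95-fold that of EGFP- cDC1 (log2 fold change 1.56 ± 0.62, unadjusted p = 0.0393, adjusted p = 0.365). In cDC2 the log2 fold change was 0.36 ± 0.61, and it was -0.30 without replicate 1 of EGFP+ cDC2 and -0.16 without replicate 2 of EGFP- cDC2. The EGFP effects in cDC1 and cDC2 differed by log2 1.20 ± 0.87 (adjusted p = 0.673). Between subsets over both fractions Cd274 differed by log2 -0.15 ± 0.46, with an interval of -1.18 to 0.88 and adjusted p = 0.951, and the sign turned without replicate 2 of EGFP- cDC1 (0.14) or replicate 1 of EGFP- cDC2 (0.30).

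Pdcd1lg2 was at 192 and 242 CPM in EGFP+ cDC1 and 82.7 and 85.0 CPM in EGFP- cDC1, against 45.0 and 6.98 CPM in EGFP+ cDC2 and 73.7 and 26.9 CPM in EGFP- cDC2. Every cDC1 library was above every cDC2 library, and the EGFP+ libraries of cDC1 were above the EGFP- ones. EGFP+ cDC1 exceeded EGFP+ cDC2 by 8.33-fold (log2 fold change 3.06 ± 0.88, adjusted p = 0.182 in edgeR), where DESeq2 gave 3.15 with an adjusted p of 0.00717. The other comparisons gave log2 1.90 ± 0.71 between subsets over both fractions (adjusted p = 0.287), 0.74 ± 0.82 between subsets among EGFP- cells, 1.37 ± 0.83 for EGFP in cDC1 (adjusted p = 0.468), -0.95 ± 0.82 for EGFP in cDC2 and 0.21 ± 0.70 for EGFP over both subsets (adjusted p = 1 for both). The EGFP effect was log2 2.32 ± 1.16 larger in cDC1 than in cDC2, with an interval of -0.39 to 5.04 and adjusted p = 0.512.

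Cd40 encodes the receptor through which CD4 T cells license dendritic cells. It was at 72.5 and 68.4 CPM in EGFP+ cDC1, against 47.1 and 18.2 CPM in EGFP- cDC1, and at 80.0 and 45.8 CPM in EGFP+ cDC2, against 61.1 and 72.0 CPM in EGFP- cDC2. Replicate 2 of EGFP- cDC1 was lowest of the 8, replicate 2 of EGFP+ cDC2 and replicate 1 of EGFP- cDC1 came next, and the other 5 lay at 61.1 to 80.0 CPM. The EGFP difference in cDC1 was log2 1.11 ± 0.55 (adjusted p = 0.411), and cDC1 against cDC2 gave -1.03 ± 0.55 among EGFP- cells (adjusted p = 0.602) and -0.43 ± 0.43 over both fractions (adjusted p = 0.776).

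Tnfsf9, which encodes the ligand of the T cell costimulator CD137, had the smallest p of the members for EGFP in cDC1. It was at 87.5 and 82.4 CPM in EGFP+ cDC1, against 27.1 and 10.7 CPM in EGFP- cDC1, and at 23.7 and 48.8 CPM in EGFP+ cDC2, against 27.1 and 14.8 CPM in EGFP- cDC2. Both EGFP+ cDC1 libraries were above all 6 others. The EGFP+ cDC1 level was 4.5-fold that of EGFP- cDC1 (log2 fold change 2.17 ± 0.67, unadjusted p = 0.0131, adjusted p = 0.285 in edgeR), while DESeq2 put it at 2.32, past the threshold (adjusted p = 0.02). The log2 difference kept its sign without each library in turn, at 1.65 to 3.0 with adjusted p of 0.105 to 0.634. It was 0.79 ± 0.65 in cDC2 and 1.48 ± 0.52 over both subsets (adjusted p = 0.951), and the effects in cDC1 and cDC2 differed by 1.37 ± 0.91 (adjusted p = 0.637). An annotated antisense transcript, Gm11110, overlaps exons of Tnfsf9 and is counted in the same table, so reads of the pair may have been split.

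Tnfrsf4 encodes OX40, a receptor best known on activated T cells. It had 375 counts (26.3 CPM) in replicate 2 of EGFP+ cDC1, 1 count in replicate 2 of EGFP- cDC2 and 0 in the other 6 libraries. It was left out of the test by the low-count filter, so 9 of the 10 genes were tested. Of 12 T cell markers, 9 were found in the table, and 0 of these had a count in either EGFP+ cDC1 library. In replicate 2 of EGFP+ cDC1 the markers of B cells summed to 22.2 CPM, of neutrophils to 25.5 CPM and of tumour epithelium to 49.3 CPM. In replicate 1 these sums were 0, 0.0438 and 0.525 CPM, and markers of NK cells were at 0 CPM in both. The part of other cell types in the Tnfrsf4 count was not tested. The library with Tnfrsf4 was the one with high Ccr7 and Il12b.

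Cd200 encodes a ligand of the inhibitory myeloid receptor CD200R. It was at 13.5 and 87.5 CPM in EGFP+ cDC1 and 30.1 and 9.83 CPM in EGFP- cDC1, against 7.70 and 8.07 CPM in EGFP+ cDC2 and 7.01 and 0 CPM in EGFP- cDC2. Every cDC1 library was above every cDC2 library. The log2 fold change between subsets was 2.59 ± 1.29 (adjusted p = 0.417). For EGFP it was 1.34 ± 1.91 in cDC1 and 1.17 ± 1.91 in cDC2, and the value in cDC1 was -0.56 without replicate 2 of EGFP+ cDC1.

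Replicate 2 of EGFP+ cDC1 held the highest level of 6 of the 10 genes, Cd80, Cd86, Cd274, Pdcd1lg2, Cd200 and Tnfrsf4, and the 15 markers of mature regulatory dendritic cells summed there to 11455 CPM, against 916 CPM in replicate 1 of the same group, 390.5 and 755 CPM in EGFP- cDC1 and 727 to 1686 CPM in the cDC2 libraries. Most of that sum was Ccr7 and Il12b as given above, while Fscn1 (21.3 against 78.5 CPM) and Cd63 (109.6 against 286 CPM) were lower than in replicate 1. Its macrophage and monocyte markers summed to 11480.0 CPM, against 389.7 CPM in replicate 1. The part of these transcripts in the EGFP differences was not tested.

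For EGFP in cDC1, edgeR called 0 of the 9 tested members, against 0% of all genes. At an unadjusted p under 0.05 there were 2 (Tnfsf9 and Cd274), against 12.7% of all genes, and DESeq2 called 1 (Tnfsf9), against 11.6%. Both EGFP+ libraries were above both EGFP- libraries for 4 members (Cd274, Pdcd1lg2, Cd40 and Tnfsf9), against 11.5% of all genes, and below them for 0, against 24% of all genes. The median log2 fold change was 1.11 over the 9 members and -0.04 over all genes. For EGFP in cDC2, edgeR and DESeq2 called 0 members, against 0% of all genes in edgeR and 0.965% in DESeq2, and 1 had an unadjusted p under 0.05 (Cd83), against 2.63%. There 1 member was higher without overlap (Cd200), against 22.6% of all genes, and 3 were lower (Cd80, Cd83 and Cd86), against 19.2%. Its medians were -0.57 over the members and 0.08 over all genes. Over both subsets edgeR and DESeq2 called 0, against 0% of all genes in edgeR and 1.61% in DESeq2, 2 had an unadjusted p under 0.05 (Cd83 and Tnfsf9), against 5.22%, and 0 were without overlap in either direction, against 0.965% of all genes higher and 2% lower.

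The test of whether the EGFP effect differed between cDC1 and cDC2 gave positive values for all 9 tested members, with a median of 1.19 against -0.20 over all genes. None passed: edgeR called 0, against 0% of all genes, DESeq2 called 0, against 6.27%, and 0 had an unadjusted p under 0.05, against 10.4%. The largest difference beside Pdcd1lg2 was that of Cd80, 1.66 ± 0.83 (unadjusted p = 0.0841, adjusted p = 0.512), followed by Tnfsf9 and Cd274 as given above, Cd40 at 1.19 ± 0.77 (adjusted p = 0.625) and Cd86 at 0.99 ± 0.71 (adjusted p = 0.671).

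**Figure D2:**
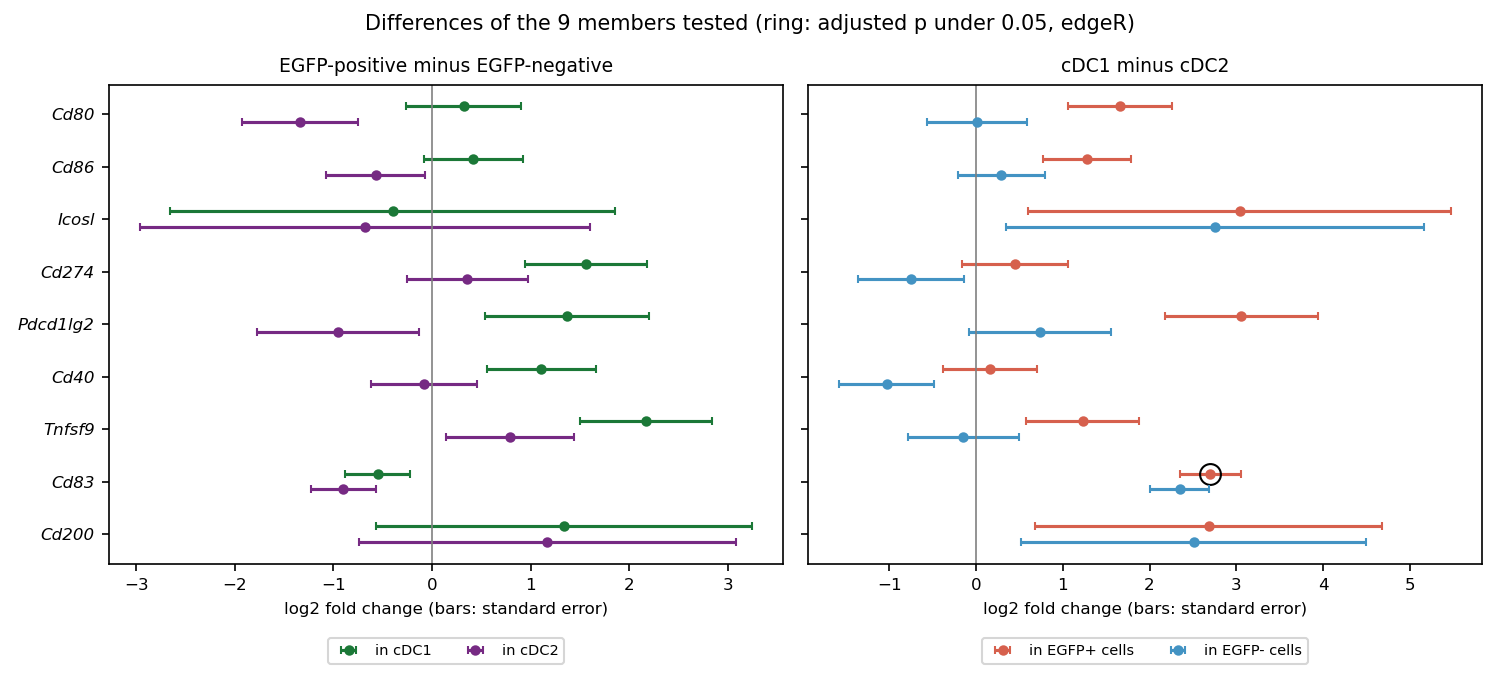
Log2 fold changes (horizontal axes, points) with their standard errors (bars) of the 9 tested genes, for EGFP-positive minus EGFP-negative cells in each subset on the left and for cDC1 minus cDC2 in each EGFP fraction on the right. A ring marks an adjusted p under 0.05, which Cd83 alone reached, in EGFP+ cells, and in cDC1 Tnfsf9 has the largest EGFP difference, at 2.17.

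Between the subsets over both fractions, 7 of the 9 tested members had positive log2 fold changes, and Cd274 and Cd40 had negative ones. There 4 members were higher in cDC1 without overlap (Cd83, Pdcd1lg2, Cd200 and Icosl), against 3.96% of all genes, and 0 were lower, against 8.56%. The median log2 fold change was 0.84 over the 9 members and -0.28 over all genes. Among EGFP+ cells 7 members were higher without overlap, against 13.7% of all genes, and 0 lower, against 33.2%, with medians of 1.66 and -0.30. Tnfsf9 was among them, at a log2 fold change of 1.23 ± 0.65 (adjusted p = 0.382), against 0.54 ± 0.51 over both fractions. Among EGFP- cells 5 were higher without overlap, against 21.9% of all genes, and 1 lower (Cd40), against 26.5%, with medians of 0.29 and -0.04. Comparisons within EGFP+ and within EGFP- cells use the same libraries as the EGFP comparisons and are not independent of them.

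Per kilobase of exon, the 10 genes ranked differently in each group. In EGFP+ cDC1 Cd83 led at 387 ± 116 CPM per kb (SD, n = 2), 45.6% of the summed level, followed by Cd274 at 117 ± 56.1, Pdcd1lg2 at 111 ± 17.9 and Cd86 at 108 ± 73.2, which overlapped one another. In EGFP- cDC1 Cd83 made up 73.4% at 566 ± 138 CPM per kb, ahead of Cd86 at 80.7 ± 10.9, and Pdcd1lg2 (42.8 ± 0.842) and Cd274 (39.8 ± 17.7) came next and overlapped. In EGFP+ cDC2 Cd274 ranked first at 85.9 ± 39.0 CPM per kb, 33.5% of the sum, and overlapped Cd83 at 59.7 ± 5.88. In EGFP- cDC2 Cd83 was first at 111 ± 12.4 CPM per kb, 35.1% of the sum, followed by Cd274 at 66.7 ± 41.5 and Cd86 at 65.8 ± 0.268, which overlapped. Icosl was last but for Tnfrsf4 in 3 groups and last in EGFP+ cDC1. In the cDC1 libraries the level of Cd83 per kb exceeded that of 99.1% to 99.5% of the genes tested, and in the cDC2 libraries that of 94.2% to 96.9%.

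**Figure D3:**
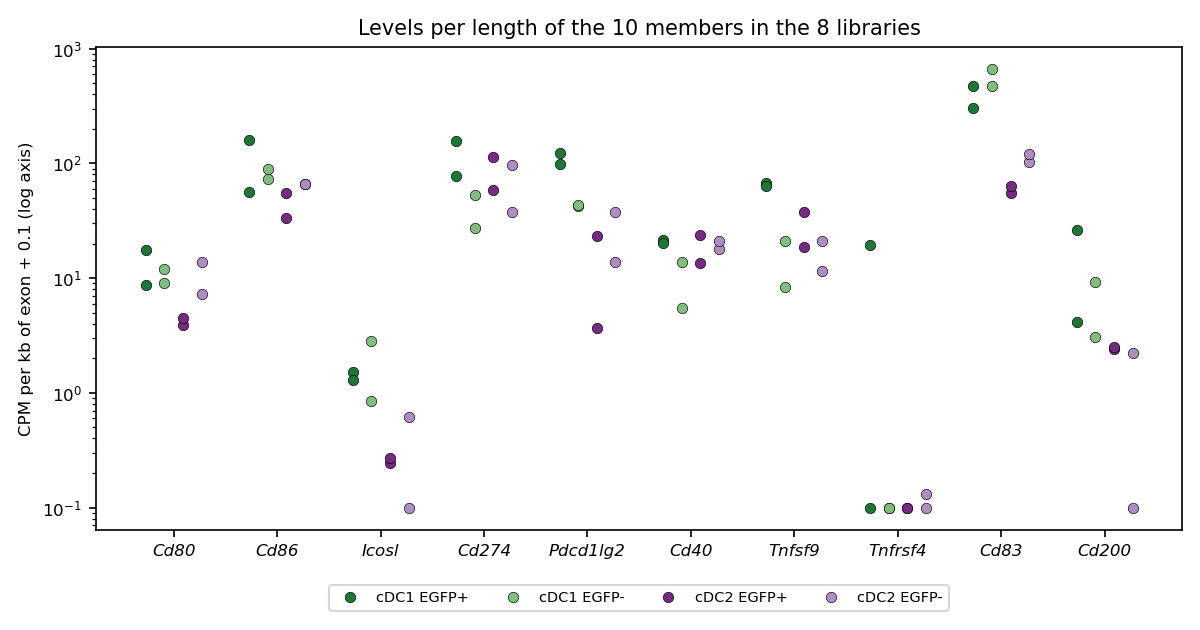
Levels of the 10 genes in CPM per kb of exon plus 0.1 (vertical log axis), with 1 point per library and the groups by colour from EGFP+ cDC1 to EGFP- cDC2. Cd83 stands alone at the top in cDC1, whereas Cd83, Cd274 and Cd86 share the range of 33.2 to 119.8 CPM per kb in cDC2, and points at 0.1 are libraries with 0 counts.

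CD40 and other receptors of its family signal through TRAF adaptors and NIK, the kinase encoded by Map3k14, to the NF-kB subunits p52 and RelB. Of the 11 genes listed for this route, all were tested and edgeR called 1, Map3k14, higher in cDC1 over both fractions, against 1.32% of all genes. Map3k14 was at 108 and 142 CPM in EGFP+ cDC1 and 12.5 and 47.4 CPM in EGFP- cDC1, against 2.76 and 1.49 CPM in EGFP+ cDC2 and 2.05 and 2.49 CPM in EGFP- cDC2. The lowest cDC1 library was above all cDC2 libraries (log2 fold change 4.80 ± 0.71, adjusted p = 0.0131). The adjusted p was 0.0615 without replicate 2 of EGFP- cDC1 and 0.0532 without replicate 1 of EGFP+ cDC2. Within the fractions the adjusted p was 0.0549 among EGFP+ cells and 0.137 among EGFP- cells.

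For EGFP in cDC1 edgeR called 0 of these 11, against 0% of all genes. At an unadjusted p under 0.05 there were 4, against 12.7% of all genes, and DESeq2 called 2 (Relb and Traf3), against 11.6%. Relb was at 79.2 and 230.5 CPM in EGFP+ cDC1, against 17.1 and 17.3 CPM in EGFP- cDC1, and at 12.7 and 15.8 CPM in EGFP+ cDC2, against 18.1 and 31.8 CPM in EGFP- cDC2. The EGFP+ cDC1 libraries were above all others (log2 fold change 3.17 ± 0.63, adjusted p = 0.150 in edgeR). Nfkb1, which encodes the p50 precursor, ran the other way, at 19.2 and 22.7 CPM in EGFP+ cDC1 against 82.6 and 39.9 CPM in EGFP- cDC1 (log2 fold change -1.55 ± 0.50, adjusted p = 0.296). Between subsets among EGFP+ cells, Traf1 was at 150 and 457 CPM in cDC1, against 27.3 and 25.4 CPM in cDC2 (log2 fold change 3.52 ± 0.62, adjusted p = 0.0734). For EGFP in cDC1 the fractions overlapped in Traf1 (log2 fold change 0.76 ± 0.56, adjusted p = 0.558).

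Interferon-gamma raises PD-L1 by a route that includes the kinase JAK2 and the transcription factor IRF1. Of the 7 genes of this route, all tested, edgeR and DESeq2 called 0 for EGFP in cDC1 and 0 between subsets. Of all genes, edgeR called 0% and 1.32% in these comparisons, and DESeq2 11.6% and 10.2%. At an unadjusted p under 0.05 there was 1 in each, against 12.7% and 13.5% of all genes. Irf1 was at 375 and 462 CPM in EGFP+ cDC1, against 139 and 74.8 CPM in EGFP- cDC1, and at 261 and 97.5 CPM in EGFP+ cDC2, against 536 and 159.5 CPM in EGFP- cDC2. The cDC1 fractions did not overlap (log2 fold change 1.97 ± 0.69, adjusted p = 0.322). Between subsets the smallest p were those of Jak2 (log2 fold change 1.27 ± 0.53, adjusted p = 0.332) and Irf2 (-0.75 ± 0.42, adjusted p = 0.497).

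Of the 6 genes that set how long PD-L1 and CD86 stay at the surface, all tested, edgeR called 1 between subsets, against 1.32% of all genes. This was Cmtm6, whose product protects PD-L1 from lysosomal breakdown. At an unadjusted p under 0.05 there were 3 between subsets, against 13.5% of all genes. DESeq2 called 2, Cmtm6 higher and Cmtm4 lower in cDC1, against 10.2%. Cmtm4 was scarce, at a mean of 1.77 CPM over all libraries (log2 fold change -9.07 ± 2.55, adjusted p = 0.207 in edgeR). Cmtm6 was at 140.2 and 309 CPM in EGFP+ cDC1 and 263 and 304 CPM in EGFP- cDC1, against 79.8 and 45.2 CPM in EGFP+ cDC2 and 56.2 and 63.1 CPM in EGFP- cDC2. It was higher in every cDC1 library than in any cDC2 library (log2 fold change 2.05 ± 0.34, adjusted p = 0.0233), a comparison in which the Cd274 interval ran from -1.18 to 0.88. The adjusted p rose over the threshold without either replicate of EGFP- cDC1 (0.0742 and 0.0784), replicate 2 of EGFP+ cDC2 (0.0614) or either replicate of EGFP- cDC2 (0.0826 and 0.093), and in the fit with a replicate block (0.0602). For EGFP in cDC1 edgeR called 0 of the 6, against 0% of all genes. At an unadjusted p under 0.05 there was 1, against 12.7% of all genes, and DESeq2 called 1 (Marchf8), against 11.6%.

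**Figure D4:**
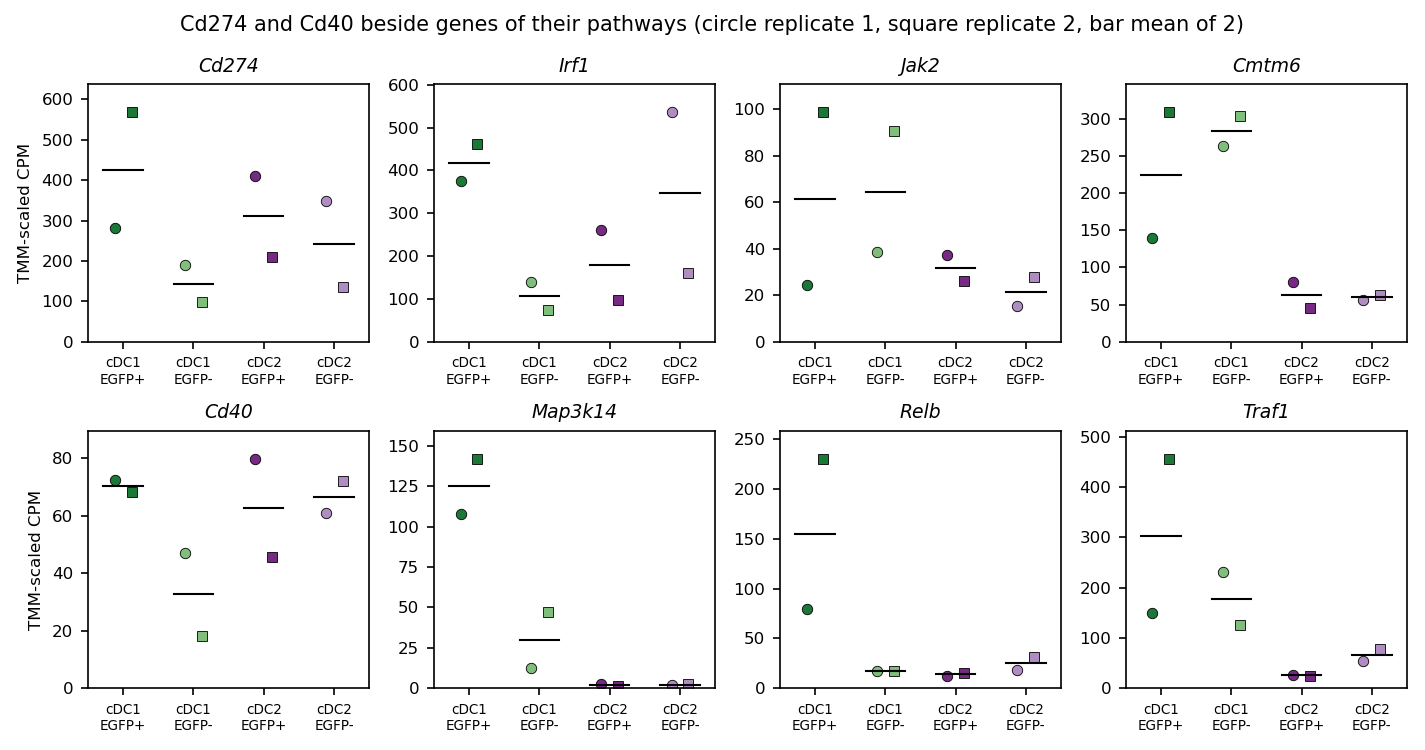
Levels in TMM-scaled CPM (vertical axes, each from 0) of Cd274 above beside Irf1, Jak2 and Cmtm6, and of Cd40 below beside Map3k14, Relb and Traf1, in the 8 libraries, with replicate 1 as a circle, replicate 2 as a square and the mean of 2 as a bar. Cmtm6 and Map3k14 are higher in every cDC1 library than in any cDC2 library, and Relb is highest in the EGFP+ cDC1 libraries, at 79.2 and 230.5 CPM.

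Among 12 other B7 family and checkpoint ligands, 8 were tested. edgeR called 0 for EGFP in cDC1 and 0 between subsets, against 0% and 1.32% of all genes. At an unadjusted p under 0.05 there was 1 in each, against 12.7% and 13.5% of all genes. DESeq2 called 1 in each, Pvrl2 and Cd276, against 11.6% and 10.2%. Pvrl2, the Nectin-2 ligand of TIGIT, was at 67.6 and 69.3 CPM in EGFP+ cDC1, against 1.17 and 0.0466 CPM in EGFP- cDC1, and at 0.989 and 6.69 CPM in EGFP+ cDC2, against 7.28 and 2.63 CPM in EGFP- cDC2 (adjusted p = 0.217 for EGFP in cDC1). The 2 EGFP+ cDC1 libraries were again the high ones. Pvr, the other Nectin-like ligand of TIGIT, was at 209 and 53.9 CPM in EGFP+ cDC1 and 32.8 and 58.5 CPM in EGFP- cDC1 (log2 fold change 1.53 ± 0.66, adjusted p = 0.395). The "do not eat me" ligand Cd47 was at 223 to 586 CPM in all 8 libraries, and its log2 fold change between subsets was 0.65 ± 0.31 (adjusted p = 0.393).

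Of 12 other tumour necrosis factor superfamily ligands and receptors, 8 were tested. edgeR called 0 for EGFP in cDC1 and 0 between subsets, against 0% and 1.32% of all genes. At an unadjusted p under 0.05 there were 2 and 3, against 12.7% and 13.5% of all genes. DESeq2 called 2 (Tnfsf13b and Tnfsf14) for EGFP in cDC1, against 11.6%, and 0 between subsets, against 10.2%. Of the 3 between subsets, Tnfrsf18 was higher in cDC1 (log2 fold change 4.09 ± 1.79, adjusted p = 0.359 in edgeR). Tnfsf10 (-7.89 ± 2.48, adjusted p = 0.25) and Tnfsf8 (-6.85 ± 2.71, adjusted p = 0.313) were lower, at means of 0.772 and 1.69 CPM. The median over the tested genes of the list was -3.89, against -0.28 over all genes. Tnfrsf18, which encodes the receptor GITR, was at 6.56 and 54.1 CPM in EGFP+ cDC1 and 17.3 and 9.79 CPM in EGFP- cDC1, against 0 and 2.72 CPM in EGFP+ cDC2 and 0 and 2.05 CPM in EGFP- cDC2. Tnfrsf9, which encodes CD137, the receptor for the product of Tnfsf9, was lower in every cDC1 library than in any cDC2 library. It was at 0 and 12 CPM in EGFP+ cDC1 and 91.0 and 0 CPM in EGFP- cDC1. In cDC2 it was at 122 and 211 CPM in EGFP+ and 208 and 281 CPM in EGFP- libraries (adjusted p = 0.546 between subsets). Tnfsf4, the ligand of OX40, had 0 CPM in 7 of the 8 libraries and 0.0521 CPM in replicate 1 of EGFP+ cDC2.

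Of 10 adhesion molecules of the contact with T cells, 9 were tested. Cd24a, which is also one of the cDC1 markers, was called between subsets over both fractions (log2 fold change 4.98 ± 0.38, adjusted p = 0.000703), against 1.32% of all genes. For EGFP in cDC1 edgeR called 0, against 0% of all genes. At an unadjusted p under 0.05 there were 2, against 12.7% of all genes, and DESeq2 called 1 (Cd48), against 11.6%. Cd48 was at 108 and 129 CPM in EGFP+ cDC1, against 312 and 319 CPM in EGFP- cDC1 (log2 fold change -1.42 ± 0.33, adjusted p = 0.193). Cd44 was at 510 and 519.7 CPM in EGFP+ cDC2, against 278 and 289 CPM in EGFP- cDC2 (log2 fold change 0.86 ± 0.28, adjusted p = 1).

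Of 12 counter-receptors known from T cells, 8 were tested. edgeR called 0 between subsets and 0 for EGFP in cDC1, against 1.32% and 0% of all genes. At an unadjusted p under 0.05 there were 4 and 1, against 13.5% and 12.7% of all genes. DESeq2 called 4 (Btla, Cd226, Ctla4 and Lag3) and 0, against 10.2% and 11.6%. Ctla4 was at 39.1 and 45.7 CPM in EGFP+ cDC1 and 54.1 and 23.3 CPM in EGFP- cDC1, against 1.20 and 0 CPM in EGFP+ cDC2 and 0 and 0.0445 CPM in EGFP- cDC2 (adjusted p = 0.0569). Lag3 was at 2.36 to 49.8 CPM in cDC1 and had 0 counts in all 4 cDC2 libraries, and Btla was at 77.7 to 243 CPM in cDC1 and 0.0539 to 9.06 CPM in cDC2. For EGFP in cDC1 the smallest p was that of Havcr2, which encodes TIM-3, at 61.0 and 63.6 CPM in EGFP+ cDC1 against 172 and 231 CPM in EGFP- cDC1 (log2 fold change -1.69 ± 0.57, adjusted p = 0.304). Of the 9 T cell markers found, 0 had a count in either EGFP+ cDC1 library and 1 to 3 had one in each of the other 6, with Cd4 highest at 3.22 CPM in replicate 1 of EGFP- cDC1 and Cd3d at 1.61 CPM in replicate 1 of EGFP+ cDC2. Their part in these levels was not tested. Cd40lg, which encodes the ligand of CD40, had 0 counts in all 8 libraries.

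Profiles over the 8 libraries were compared with those of 5930 genes by the root mean square difference of centred log2(CPM + 1) values, as a description. The genes most like Cd83 were Pfkp, Phf11b and Acadl, at 0.31, 0.32 and 0.39, against a median of 1.58 over all genes. Pdcd1lg2 was closest to Prr5l (0.39), Serpina3g (0.51) and Plscr1 (0.52), against a median of 1.74. For Cd274 the nearest were Sertad2 (0.33), Gsap (0.41) and Il4ra (0.42), against 1.16, and for Tnfsf9 they were Orc4 (0.37), Sqstm1 (0.45) and Ubxn7 (0.46), against 1.33. Cd86 lay nearest to Irak4 (0.11), Abhd16a (0.16) and Ikbkb (0.19), but its own spread over the libraries was only 0.64, and the median over all genes was 1.02. Cd40 was nearest to Prkaa1 (0.19), Cd80 to Anapc2 (0.29) and Cd200 to Kif21b (0.63).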

How the data were processed

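The labels describe cells sorted by flow cytometry from tumours, amplified cDNA and KAPA libraries. The authors deposited raw counts per gene symbol (24369 genes, 8 libraries), whose columns were matched to samples by name, with 0 left over. The submitters' processing notes name Trimmomatic 0.39, STAR 2.7.5c, Cufflinks 2.2.1 and mm10. Of counter and strand setting nothing is stated in the sources used here. Testing was by edgeR 4.0.16 (R 4.3.3). Of the genes, 11394 passed filterByExpr, TMM gave the scaling, glmQLFit was robust, and p-values from glmQLFTest were adjusted by the Benjamini-Hochberg method with a threshold of 0.05. A mean per group was fitted to all 8 libraries, and an additive model of subset and EGFP gave comparisons over both fractions or both subsets. Dispersion was 1.28 (coefficient of variation 1.13). Standard errors came from the fold change and F statistic, and intervals are of 95%. Lengths are GENCODE M21 exon unions. The members, the lists of related genes and the markers were chosen with earlier results of these data known. In the lists, genes past the threshold, or else up to 2 with the lowest p among those averaging 5 CPM or more, were named in the comparisons described. Traf1, Cd44, Cd84, Cmtm4, Tnfsf8, Tnfsf10, Btla, Tnfsf4, Cd40lg and the markers whose levels are given were chosen after their values were seen. For each member with a mean of at least 10 CPM, genes of like profile were sought among those of at least 10 CPM. Alternatives were DESeq2 1.42.0, RLE scaling, no filter, at least 10 CPM in 2 libraries, the compared libraries alone, no robust estimation, removal of Rn45s, a replicate block and leaving out each library in turn. The steps were tested on simulated data. One gene of the lists is not reported here.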

Additional observations from a re-analysis of the deposited data

Results flagged for a closer look

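Each gene's level was searched, within the 4 libraries of each subset, for 1 library far from the other 3, which gave 20 groups of 4 libraries over the 10 genes. The gap to the nearest library was set against Dixon's 95% critical value for the share of the range, and chance flags about 1 group in 20. In 2 groups, given next, it exceeded that value. Tnfrsf4 in the cDC2 libraries exceeded it too but was left unflagged, as its highest level was 0.0445 CPM (1 count). Tnfrsf4 was at 26.3 CPM in replicate 2 of EGFP+ cDC1 and at 0 CPM in the other 3 cDC1 libraries. Cd200 was at 0 CPM in replicate 2 of EGFP- cDC2, against 7.70 and 8.07 CPM in EGFP+ cDC2 and 7.01 CPM in replicate 1 of EGFP- cDC2.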

How the results depend on the processing

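Of 682 values of 44 log2 fold changes under the alternatives, 645 kept their direction and side of the threshold, 17 lost a call, 13 gained one and 7 reversed; no reversed value was called. The reversals came from leaving out 1 library, which gave -0.56 to 2.36 for Cd200, -0.27 to 0.75 for Cd80 and -0.52 to 0.99 for Cd86 for EGFP in cDC1, and for Cd274 -0.30 to 1.20 (also -0.16) for EGFP in cDC2 and -0.50 to 0.30 (also 0.14) between subsets. Between subsets over both fractions 1 member was called throughout. For EGFP in cDC1, 1 member was called under DESeq2 and 0 otherwise. Among EGFP- cells 1 was called under RLE scaling, DESeq2, no filter, the 10 CPM filter, the compared libraries alone and removal of Rn45s, and 0 to 1 without a library. Among EGFP+ cells DESeq2 called 3, the compared libraries alone, no robust estimation and the replicate block called 0, and leaving out a library called 0 to 2; the cause was not tested. Titles give all replicates of the same number a shared code whose meaning is not stated, so a common source is possible. Same-numbered libraries did not deviate together from their group means (correlations -0.224 to 0.0408), and the replicate block, under which Cd83 had an adjusted p of 0.108 among EGFP+ cells, changed no other call on the members. Over all genes edgeR and DESeq2 called 150 and 1160 between subsets, 41 and 838 among EGFP- cells, 26 and 1586 among EGFP+ cells, 0 and 1325 for EGFP in cDC1, 0 and 110 in cDC2, 0 and 184 over both subsets and 0 and 714 for the difference between the EGFP effects. With no filter 236, 112, 153, 57, 0, 0 and 29 were called in the same order, with the replicate block 82, 3, 0, 0, 0, 0 and 0, and with no robust estimation 99, 25, 12 and then 0. The compared libraries alone gave 292 among EGFP- cells, 0 among EGFP+ cells and 0 for EGFP. Leaving out a library gave 50 to 277, 1 to 465, 1 to 1273, 0 to 1050, 0 to 0, 0 to 0 and 0 to 668. The highest for EGFP in cDC1 came without replicate 1 (763) or replicate 2 (1050) of EGFP+ cDC1. RLE scaling put the median difference between EGFP effects over all genes at -0.06, against -0.20 under TMM.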

Other observations

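The balance of the PD-1 ligands separated the subsets. This ratio was looked at after the values of both genes were seen, and is a description. There were 0.683 and 0.425 counts of Pdcd1lg2 per count of Cd274 in EGFP+ cDC1 and 0.436 and 0.861 in EGFP- cDC1, against 0.110 and 0.0331 in EGFP+ cDC2 and 0.212 and 0.198 in EGFP- cDC2. All cDC1 libraries were above all cDC2 libraries, as they already were for Pdcd1lg2 on its own, whereas Cd274 on its own overlapped between the subsets.

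The ratio of Cd83 to Cd86 counts did the same, at 3.81 and 2.06 in EGFP+ cDC1 and 5.27 and 4.52 in EGFP- cDC1, against 0.703 and 1.35 in EGFP+ cDC2 and 1.09 and 1.28 in EGFP- cDC2. Cd83 on its own already separated the subsets, so this ratio largely restates it. The ratio of Cd80 to Cd86 counts, by contrast, overlapped between the subsets, at 0.103 to 0.164 in cDC1 and 0.0691 to 0.209 in cDC2.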
